A study of Homo sapiens with 3 samples.

Results

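The clade B serpins described here are 10 genes, SERPINB1, SERPINB2, SERPINB3, SERPINB4, SERPINB5, SERPINB6, SERPINB7, SERPINB8, SERPINB9 and SERPINB13, taken by symbol from the 29689 gene symbols of the deposited table. All 10 were found in it, 7 on chromosome 18 and 3 on chromosome 6 (GRCh37). The RNAseq data came from tumors of SUM-149, a human TNBC (triple-negative breast cancer) cell line, implanted in mammary fat pads of female nude mice. There was 1 library each for vehicle, the CDK2 inhibitor dinaciclib (CDK2i) and the EZH2 inhibitor EPZ6438 (EZH2i), both inhibitors given for 10 days. Dinaciclib also acts on other cyclin-dependent kinases. EPZ6438 is the agent named in the sample labels, and the study's methods name EPZ-6438 for its tumor-bearing mice. A figure legend names GSK343 for the growth of EZH2i-treated SUM-149 xenografts. Which of these agents the EZH2i values reflect is therefore not settled here. The 3 libraries thus shared the cell line and the host, and both inhibitor libraries were compared with the same vehicle library. Nude mice lack most T cells but keep neutrophils, macrophages, B cells and NK cells, and how reads from mouse cells were handled was not given in the sources used here. The age of the mice and the number of tumors behind a library were not stated either. Below, the tumor of a treatment stands for its 1 library.

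Serpins are protease inhibitors that present a reactive centre loop as bait. When a protease cuts this loop, the serpin changes shape and traps the enzyme in a covalent complex. Clade B members lack a classical signal peptide and act mainly inside cells, where they protect epithelia and leukocytes from their own or foreign proteases. Several are abundant in squamous epithelium, and SERPINB5 (maspin), which inhibits no known protease, is typical of mammary myoepithelial and basal cells.

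Since SERPINB3 and SERPINB4 (squamous cell carcinoma antigens) are near copies of each other, their values depend on how the authors' counting split shared reads. In the GENCODE annotation the canonical transcripts of both are 1707 bases long and differ at 74 bases, so that 95.7% of bases were identical. Over the 1170 coding bases 95.2% were identical, and the longest identical run was 129 bases. Of the 1608 stretches of 100 bases, 57 (3.54%) were identical in both, so most such stretches hold at least 1 base that tells the genes apart. The 120 coding bases with the most differences are shown because they run into the reactive centre loop, the part that meets the protease. Capitals mark the 18 bases that differ. The stretches lie at chr18:61322995-61323114 for SERPINB3 and chr18:61305057-61305176 for SERPINB4, both on the minus strand of GRCh37, and are read 5′ to 3′ along the transcript.
SERPINB3: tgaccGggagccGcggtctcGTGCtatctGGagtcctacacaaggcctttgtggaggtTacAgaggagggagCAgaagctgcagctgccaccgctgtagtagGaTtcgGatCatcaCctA
SERPINB4: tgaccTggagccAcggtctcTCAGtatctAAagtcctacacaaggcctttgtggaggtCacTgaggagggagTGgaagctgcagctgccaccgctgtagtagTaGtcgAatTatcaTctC
No other pair of members was this close. The nearest other pair was SERPINB8 and SERPINB9, with 73.2% of aligned coding bases identical.

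Expression was deposited as log2 FPKM (fragments scaled by transcript length and depth), with −9 standing for an FPKM of 0. No value has a replicate, so no p-value was computed, and each difference below is between single libraries. A gene passed when its levels differed by more than 2-fold and the higher one exceeded log2 FPKM 3 (8 FPKM), the fold and expression thresholds of the study. Fragment numbers were estimated from FPKM, transcript length and the depth read off the smallest steps of the values, 16.8 M (mega) fragments under vehicle, 19.1 M under CDK2i and 17.5 M under EZH2i. Counting intervals (95%) come from these numbers and cover counting error only. As a stand-in for replicate error, the spread of a gene is the SD of the EZH2i minus CDK2i differences over the 200 genes nearest in mean expression, which holds drug differences too. In bulk tumor RNA, fewer cells of a type and less RNA per cell cannot be told apart. To check the cell line, the basal keratin genes KRT5 and KRT14 were at 1873 and 2458 FPKM in the vehicle tumor, ESR1 was at 0.792 FPKM, and PGR, the progesterone receptor gene, was listed at 0. ERBB2, the HER2 gene and also part of this check, was not low in that tumor, at 30.4 FPKM.

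Of the 10 members 9 were above the expression minimum in at least 1 tumor, as the plot of levels shows. SERPINB5 led by far at 146 FPKM under vehicle, 230 under CDK2i and 244 under EZH2i, above 98.9% of all genes in the vehicle tumor. It made up 41.7%, 42.0% and 49.2% of the summed FPKM of the 10 members. At the other end SERPINB9, the granzyme B inhibitor of cytotoxic lymphocytes, was at 0.651, 0.317 and 1.36 FPKM, and below the expression minimum in each library. The other 8 members lay between 7.92 FPKM (SERPINB7) and 46.3 FPKM (SERPINB3) in vehicle. In that tumor SERPINB3 and SERPINB1 were 0.02 apart on the log2 scale and SERPINB2 and SERPINB13 0.01 apart, far less than the spread of about 0.6 to 0.7 of these genes, so their order is not resolved. SERPINB5 stood 1.66 above the next member in vehicle, 1.39 in CDK2i and 2.10 in EZH2i. The levels of all 10 members summed to 351 FPKM under vehicle, 548 under CDK2i and 495 under EZH2i.

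**Figure D1:**
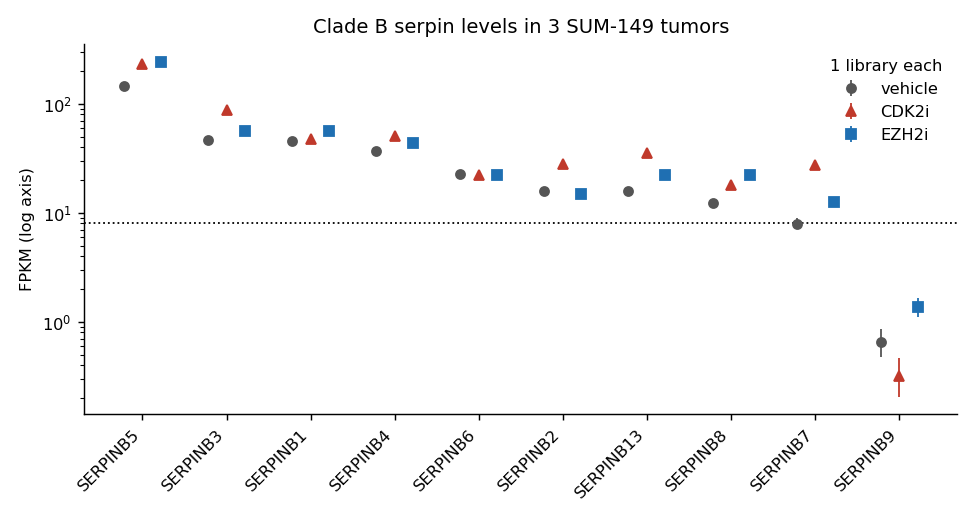
FPKM (log axis) of the 10 clade B serpins in the vehicle, CDK2i and EZH2i tumors, 1 library each, ordered by the vehicle level, with 95% counting intervals that are mostly smaller than the symbols and a dotted line at 8 FPKM. SERPINB5 is highest in each library, SERPINB9 lies below the line in each, and SERPINB7 crosses it from 7.92 FPKM in vehicle to 27.4 in CDK2i and 12.6 in EZH2i.

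In the CDK2i tumor the serpins of chromosome 18 were higher than in the vehicle tumor, led by SERPINB7 and SERPINB13, while the well-expressed members of chromosome 6 were at nearly the same level. Of the 9 members above the expression minimum, 2 passed as higher and 0 as lower. Over all 6632 genes above the minimum in this comparison 3.27% passed as higher and 8.07% as lower. All 7 members of chromosome 18 were higher, by 0.46 to 1.79 on the log2 scale with a median of 0.81. Over the 11109 expressed genes (none of the 3 values at −9 and their mean over log2 FPKM 1) the median change was −0.11, and 4659 of them were higher. The members were chosen with results of these tumors known, so these counts describe them and test nothing.

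SERPINB7 (megsin) is a serpin of the upper epidermis, whose loss causes Nagashima-type palmoplantar keratosis. It was at 7.92 FPKM under vehicle, 27.4 under CDK2i and 12.6 under EZH2i, from about 292, 1152 and 485 fragments. The CDK2i tumor was thus far above the others, by 1.79 over vehicle on the log2 scale (3.46-fold, counting interval 1.60 to 1.98), against a spread of 0.76. SERPINB13 (headpin), an inhibitor of cathepsins L and K found in stratified epithelium, was at 15.8 FPKM under vehicle, 35.6 under CDK2i and 22.1 under EZH2i. It was again highest in CDK2i, by 1.17 over vehicle (2.25-fold, counting interval 1.05 to 1.28), against a spread of 0.63.

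SERPINB3, which inhibits the lysosomal cysteine proteases cathepsin L, S and K, was at 46.3 FPKM under vehicle, 88.1 under CDK2i and 56.8 under EZH2i. The CDK2i change of 0.93 lay just under the threshold, with a counting interval of 0.83 to 1.02 that reaches past it. Its neighbor and near copy SERPINB4, which inhibits the chymotrypsin-like proteases cathepsin G and chymase, was at 36.99, 50.9 and 43.3 FPKM, a CDK2i change of 0.46 (0.35 to 0.57). SERPINB3 thus went from 1.25 times the SERPINB4 level in vehicle to 1.73 times in CDK2i and 1.31 times in EZH2i. Added together, both genes were at 83.3, 139 and 100.1 FPKM, a CDK2i change of 0.74. This sum does not depend on how shared reads were split between the pair, but would lack any that were not counted.

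SERPINB2 (PAI-2), an inhibitor of urokinase and of tissue plasminogen activator, was at 15.9 FPKM under vehicle, 27.9 under CDK2i and 14.8 under EZH2i. It was high in the CDK2i tumor alone, with a CDK2i change of 0.81 (0.65 to 0.97) that did not pass. SERPINB5 changed by 0.66 in CDK2i and SERPINB8, which inhibits the proprotein convertase furin, by 0.55, and neither passed. Both changes were smaller than the spreads of 0.71 and 0.80, as was that of SERPINB4 (0.46 against 0.64). The CDK2i changes of SERPINB2, SERPINB3, SERPINB7 and SERPINB13 were larger than their spreads. On chromosome 6, SERPINB1, the inhibitor of neutrophil elastase, cathepsin G and proteinase 3, was at 45.6, 47.2 and 56.0 FPKM. SERPINB6, another cathepsin G inhibitor, was at 22.8, 22.2 and 22.3 FPKM, the flattest of the members. For both, the counting interval of the CDK2i change held 0, and the changes of 0.05 and −0.04 were far smaller than their spreads of 0.66 and 0.63. SERPINB9 was lower in CDK2i by 1.04 on the log2 scale, but from only about 45 and 25 fragments (counting interval −1.80 to −0.30), and its level kept it out of the counts.

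**Figure D2:**
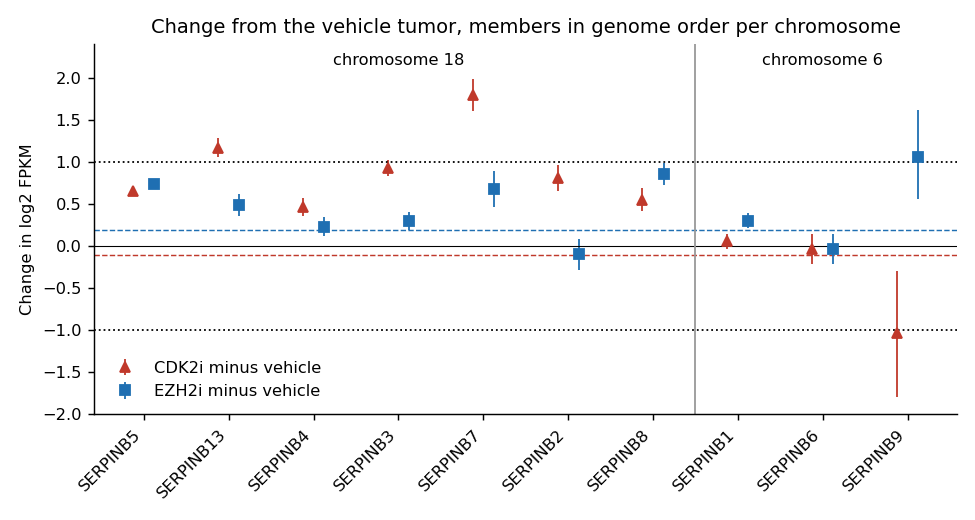
Change in log2 FPKM from the vehicle tumor for CDK2i (red) and EZH2i (blue), 1 library each, with 95% counting intervals, for the members of chromosome 18 and of chromosome 6 in genome order. Dotted lines mark a 2-fold change and dashed lines the median change of expressed genes, −0.11 in CDK2i and 0.19 in EZH2i. The red symbols of all 7 chromosome 18 members lie above 0.4, SERPINB7 and SERPINB13 lie above the 2-fold line, and SERPINB1 and SERPINB6 lie near 0.

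In the EZH2i tumor none of the 9 members above the minimum passed in either direction. Over all 7414 genes above the minimum 8.93% passed as higher and 4.42% as lower. SERPINB8 had the largest change, from 12.4 FPKM in vehicle (18.1 in CDK2i) to 22.4 in EZH2i, by 0.86 on the log2 scale (counting interval 0.72 to 0.99). SERPINB5 followed with 0.74 (0.69 to 0.78), SERPINB7 with 0.67 (0.46 to 0.88) and SERPINB13 with 0.48 (0.35 to 0.61). SERPINB1 and SERPINB3 both changed by 0.30, SERPINB4 by 0.23, SERPINB6 by −0.04 and SERPINB2 by −0.10. The changes of SERPINB5 and SERPINB8 were near their spreads of 0.71 and 0.80, and the others were smaller than theirs. SERPINB9 was higher by 1.06 (0.55 to 1.62), with about 99 fragments in EZH2i against 45 in vehicle, and still at only 1.36 FPKM. Over the 9 expressed members the median change was 0.30, with 7 higher, beside 0.19 and 6830 of 11109 over expressed genes.

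The direction of the EZH2i changes was less settled than that of the CDK2i changes. Across expressed genes, which are not independent replicates, the EZH2i change ran with the GC content of the transcript (Spearman's rho −0.585 over 9406 genes) and with its length (0.487), whereas the CDK2i change did so little (0.035 and 0.0886). The transcripts of the members had 37.9% to 50.9% GC with a median of 40.5%, below the median of 49.7% over expressed genes. With this trend removed, the EZH2i change was −0.09 for SERPINB1, −0.05 for SERPINB3, −0.13 for SERPINB4, −0.12 for SERPINB13 and −0.46 for SERPINB2, and it was 0.07 for SERPINB6, 0.25 for both SERPINB5 and SERPINB7 and 0.31 for SERPINB8. The members' median in EZH2i then changed sign, to −0.05. The part that GC content and length have in the EZH2i values was not tested. In CDK2i the same correction left all 7 chromosome 18 members higher, and the changes of SERPINB3 and SERPINB2 moved past the threshold, to 1.14 and 1.02.

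**Figure D3:**
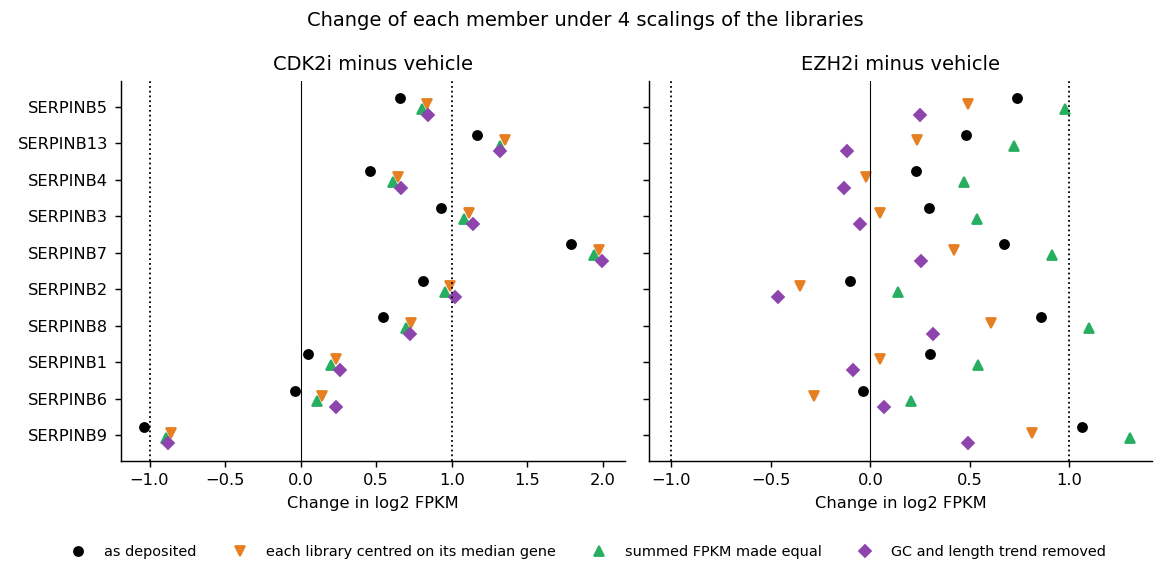
Change of each member in log2 FPKM, CDK2i minus vehicle on the left and EZH2i minus vehicle on the right, with the deposited values (black), each library centred on its median gene (orange), summed FPKM made equal (green) and the GC and length trend removed (purple), and dotted lines at a 2-fold change. On the left the 7 chromosome 18 members lie above 0 under each of the 4, while on the right SERPINB1, SERPINB2, SERPINB3, SERPINB4, SERPINB6 and SERPINB13 lie on both sides of 0.

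Among the 9 members above the minimum, the treated tumors differed most in SERPINB7, which was lower in EZH2i than in CDK2i by 1.12 on the log2 scale (counting interval −1.28 to −0.97) and was the only one of the 9 to pass. Over all 7394 genes above the minimum 6.53% were lower in EZH2i than in CDK2i by this rule and 17.5% were higher. SERPINB2 differed by −0.91, SERPINB13 by −0.69, SERPINB3 by −0.63 and SERPINB4 by −0.23, and SERPINB5 (0.08) and SERPINB8 (0.31) were at or above their CDK2i level. Of the 9 expressed members 5 were lower in EZH2i and 4 higher, with a median of −0.23, while the median over expressed genes was 0.35. This split depended on the scaling. The 4 higher members, SERPINB1, SERPINB5, SERPINB6 and SERPINB8, were all lower in EZH2i with each library centred (−0.43 to −0.12) and after removal of the GC and length trend (−0.59 to −0.16). Among the members of chromosome 18, SERPINB2 alone had a value in EZH2i under that in vehicle, by less than its counting interval resolves (−0.29 to 0.08). SERPINB9 was 2.10 higher in EZH2i than in CDK2i (1.47 to 2.81), from about 99 and 25 fragments, against a spread of 1.31 for genes of its low level.

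The members of chromosome 18 lie within 543 kb (chr18:61144191-61687013, GRCh37), in the order SERPINB5, SERPINB13, SERPINB4, SERPINB3, SERPINB7, SERPINB2 and SERPINB8, with SERPINB4 and SERPINB3 on the minus strand and the rest on the plus strand. SERPINB12 and SERPINB10, 2 clade B genes of the same cluster that are not among the 10, were below the expression minimum in each library. SERPINB12 was at 0.792 FPKM under vehicle, 2.90 under CDK2i and 0.670 under EZH2i, from about 49.7, 208 and 43.9 fragments, a CDK2i change of 1.87 (counting interval 1.42 to 2.34). SERPINB10 was at 1.12, 1.03 and 0.699 FPKM, with a CDK2i change of −0.12 whose counting interval held 0 (−0.77 to 0.53) and whose sign turned under each of the 3 other scalings. SERPINB11 was not analysed here. The 5 expressed genes of other families among the nearest flanking genes on chromosome 18, which included KDSR and VPS4B, had a median change of 0.32 in CDK2i (−0.44 to 0.62). In EZH2i the same 5 genes were all higher, with a median of 0.93, above the 0.48 of the chromosome 18 serpins. Their starts lay up to 5197 kb from that of SERPINB5 (TMX3), and these values still hold the GC and length trend. The 8 expressed flanking genes of other families on chromosome 6 had medians of 0.25 in CDK2i and −0.22 in EZH2i. A regional effect was not tested. The other cluster, SERPINB1, SERPINB9 and SERPINB6 on the minus strand of chromosome 6 (chr6:2832566-2972399), summed to 69.1 FPKM under vehicle, 69.8 under CDK2i and 79.7 under EZH2i. The chromosome 18 members summed to 281, 478 and 416 FPKM.

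**Figure D4:**
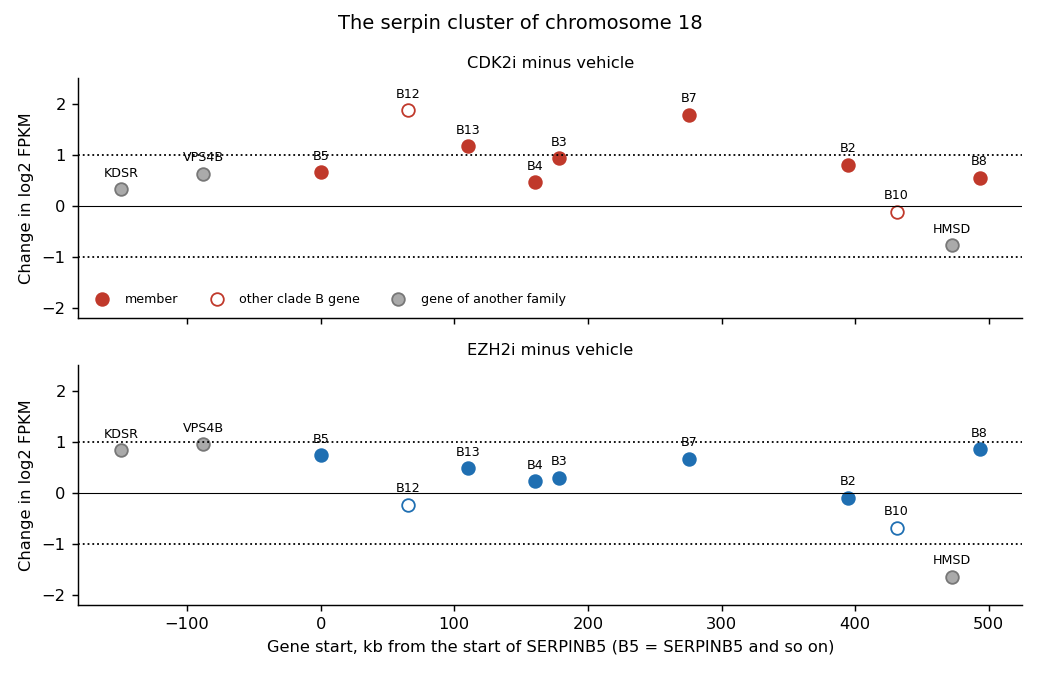
Change in log2 FPKM from vehicle in CDK2i (top) and EZH2i (bottom), 1 library each, against the distance of each gene's start from that of SERPINB5 in kb, for members (filled), other clade B genes (open) and genes of other families (grey), within −200 to 700 kb and at any expression level, with dotted lines at a 2-fold change. Within this range SERPINB7, SERPINB12 and SERPINB13 lie highest in CDK2i, where SERPINB10 and HMSD lie below 0, and in EZH2i the flanking genes KDSR and VPS4B lie close to SERPINB8.

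Part of some members' exon sequence is shared with other annotated genes. SERPINB3 shares 620 exon bases (36.3%) with SERPINB11 on the opposite strand. SERPINB2 shares 547 bases (20.0%) with an unnamed gene and SERPINB8 370 bases (6.42%) with HMSD, both on the same strand. Whether strand was used in counting was not stated, so reads of these stretches cannot be assigned with certainty. HMSD itself was low in each library.

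The promoters of the members, 250 bases before to 50 after the transcript start in RefSeq (GRCh38.p14), were found for all 10 genes and placed on GRCh37 by exact match. They were searched on both strands for TGANTCA, a loose form of TGACTCA, the site of the AP-1 factors (dimers of FOS and JUN proteins). It was used since JUN and FOS genes were among the genes far higher in CDK2i. The motif was chosen after those values were seen. It was present in 5 of the 10 genes, all on chromosome 18 (SERPINB2, SERPINB5, SERPINB7, SERPINB8 and SERPINB13). SERPINB2 and SERPINB5 held it only as TGAATCA, which differs from the AP-1 site TGACTCA. Of all 35116 promoters 7.71% held it, and by gene 9.37% of 27305. Promoters of the chromosome 18 members had a median GC content of 43.0% (29.7% to 59.7%) against 58.7% over all promoters. Among genes with promoters in this wide range (median GC content 48.0%) 12.9% held the motif, so GC content was matched only loosely. The stricter form TGACTCA, read TGAGTCA on the other strand, was in SERPINB7, SERPINB8 and SERPINB13, and in 6.05% of all genes. These matches are shown on the plus strand of GRCh37, which is the strand of these genes, with the motif in capitals. SERPINB13 has it 87 bases before the start (chr18:61254480-61254506). SERPINB7 has it 39 and 45 bases before the starts of separate transcripts (chr18:61442603-61442629 and chr18:61444960-61444986), and SERPINB8 28 bases before (chr18:61637277-61637303). A further SERPINB7 promoter, upstream of both (chr18:61420041-61420340), has no match. The labels first and next below therefore cover only the SERPINB7 starts with a match.
SERPINB13: cgagagatgcTGACTCAgttggtctgg
SERPINB7, first start: tgctgtgctcTGAGTCAtagggaagcc
SERPINB7, next start: agggagtgtcTGAGTCAgaggctttat
SERPINB8: cgaacggttcTGAGTCAtctgccggaa
SERPINB7 and SERPINB13 are also the 2 members that passed in CDK2i, whereas SERPINB8 changed by 0.55. SERPINB3, with a CDK2i change of 0.93, has no match in this window, and its promoter differs from that of SERPINB4 at only 4 of 300 bases. A match is a run of letters and was not tested as a binding site. The 7 AP-1 genes measured (a list added after the data were seen) were all above the minimum in CDK2i. There 6 passed as higher, beside 3.27% over all genes. In EZH2i 6 were above the minimum and 1 passed as higher, beside 8.93% over all genes. FOS was at 20.5 FPKM under vehicle, 511 under CDK2i and 37.3 under EZH2i, and JUNB at 125, 1461 and 89.8. FOSL1, in contrast, was at 31.2, 75.2 and 84.4 FPKM, high in both treated tumors. Their part in the serpin values was not tested.

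Other genes of keratinocytes were also higher in the CDK2i tumor. All 5 basal keratins measured (KRT5, KRT14, KRT17, KRT6A and KRT6B) passed in CDK2i, with a median change of 1.29, and 0 of 5 passed in EZH2i (median 0.05). Over all genes above the minimum 3.27% passed as higher in CDK2i and 8.93% in EZH2i. At such shares a count of 0 among 4 or 5 genes says little about them. Of the squamous differentiation genes, 4 of the 7 above the minimum passed as higher in CDK2i. Among these SPRR1B, a cornified envelope protein, went from 40.9 FPKM in vehicle to 190 in CDK2i and 34.3 in EZH2i, and IVL (involucrin) from 3.96 to 13.7 and 5.36 FPKM. KRT10, the keratin of the suprabasal epidermis, was instead at 507, 510 and 42.5 FPKM, level in CDK2i and far lower in EZH2i. In EZH2i 2 of the 5 squamous differentiation genes above the minimum, KRT10 and KRT1, passed as lower and 0 as higher. Over all genes 4.42% passed as lower in EZH2i. The median change of the 8 expressed squamous genes in EZH2i was −0.63, with 5 lower and 2 higher. This lean depended on the GC and length trend. With the trend removed, SPRR1B went from −0.25 to 0.11 and CNFN from 0 to 0.71. IVL and TGM1 stayed higher, and KRT1, KRT10, KRT13 and SPRR1A stayed lower. By comparison the serpins of chromosome 18 had a CDK2i median of 0.81 and in EZH2i none passed as lower. Whether these genes and the serpins changed in the same cells was not tested. General epithelial genes (EPCAM, CDH1, KRT8 and KRT18) passed in 0 of 4 cases in either tumor, with medians of 0.35 and 0.27. Leukocyte genes summed to 11.5 FPKM under vehicle, 11.1 under CDK2i and 5.63 under EZH2i over 9 genes, of which 3, 3 and 4 were listed at 0 and PTPRC was at 0.0224, 0.0196 and 0 FPKM. The neutrophil genes summed to 2.48, 1.33 and 0.233 FPKM, the 6 fibroblast genes to 24.4, 38.3 and 28.8, and the 3 endothelial genes to 0.833, 0.730 and 0.466. Each sum was well below the 351 to 548 FPKM of the serpins. Such cells in a xenograft come from the mouse host, while reads were aligned to the human genome. These low sums therefore do not measure how many such cells the tumors held, nor which cells held the serpin RNA.

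Genes with a pattern most like that of 2 members were looked up by the distance between their pairs of changes, among expressed genes within 1 log2 unit in mean. For SERPINB5, the member highest in vehicle, the nearest of 390 genes were CANX (calnexin, 0.64 in CDK2i and 0.73 in EZH2i), ANXA5 (annexin A5, 0.63 and 0.74) and YWHAZ (a 14-3-3 protein, 0.54 and 0.70). For SERPINB7 the 2 nearest of 4428 were CASP14 and RP13-766D20.2. CASP14, a caspase of epidermal differentiation, changed by 1.84 in CDK2i and 0.55 in EZH2i, from 3.89 log2 FPKM in vehicle. The likeness is over 3 libraries only.

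Among the proteases that these serpins are known to inhibit, urokinase was higher in both treated tumors and cathepsin V in EZH2i. Of the 17 genes of this list in the table, which includes PLAUR, the urokinase receptor, 8 were above the minimum in each comparison with vehicle, 1 passed as higher in CDK2i, 2 in EZH2i and 0 as lower, beside 3.27% and 8.93% as higher over all genes. PLAU, urokinase and the main target of SERPINB2, was at 19.0 FPKM under vehicle, 45.04 under CDK2i and 80.1 under EZH2i, passing in both. SERPINB2 in EZH2i, at 14.8 FPKM, was not resolved from its vehicle level. PLAT, tissue plasminogen activator, was at 18.2, 16.3 and 22.8 FPKM and passed in neither. Among targets of SERPINB3 and SERPINB13, cathepsin L (CTSL1 in the table) was at 50.2, 58.2 and 45.7 FPKM. Its relative cathepsin V (CTSL2) was at 23.8, 30.4 and 52.2 and passed in EZH2i with a change of 1.14, which was 0.89 with each library centred and then did not pass. Cathepsins S and K were low, between 0.584 and 2.43 FPKM. FURIN, the target of SERPINB8, was at 93.9, 101 and 103 FPKM, nearly level while SERPINB8 differed by up to 0.86 on the log2 scale. The neutrophil proteases met by SERPINB1 (ELANE, PRTN3 and CTSG) were at most at 1.26 FPKM in vehicle and listed at 0 in both treated tumors. GZMB, the target of SERPINB9, was at 0.246, 2.64 and 0.295 FPKM, highest in the CDK2i tumor, where SERPINB9 was lowest. Both genes were below the expression minimum in each library, GZMB with only about 3.7, 45.1 and 4.6 fragments.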

How the data were processed

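RNAseq was done on 1 SUM-149 xenograft tumor library each for vehicle, CDK2i and EZH2i. The authors aligned reads to hg19 (GRCh37), with STAR and CASAVA named in the submitters' processing notes without versions, and deposited log2 FPKM per gene symbol. The counting tool, gene lengths, use of strand and handling of mouse reads were not given in the sources used here. The table held no counts. Its values were used as deposited, and changes are differences of log2 FPKM. A gene passed with a fold above 2 and the higher value above log2 FPKM 3. The study's limma p cutoff could not be applied to 1 library per condition. Depth was read from the steps of 1 fragment in single-transcript genes of GENCODE 44, and fragments per gene used the canonical transcript, an approximation that is loosest for SERPINB6. Poisson and conditional binomial intervals (exact, 95%) cover counting error only. The members, the gene lists and the alternatives were chosen with earlier results of these data known. Genes named are the 10 members, their relatives, target proteases, cystatins, other serpins, marker genes, and the 3 nearest pattern neighbors of the member highest in vehicle and of the passing member with the largest change, except for 2 genes that are not reported here. Alternatives were other fold and expression thresholds, pseudocounts, scalings, and removal of a degree 3 trend on GC content and length. Python 3.11.15, numpy 2.4.6, pandas 2.3.3 and scipy 1.17.1 were used, and the steps were tested on simulated data.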

Additional observations from a re-analysis of the deposited data

How the results depend on the processing

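In CDK2i the number of passing members (2) was 5 at a fold of 1.5, 1 at a fold of 3, 1 at a minimum of log2 FPKM 5 and 4 with the GC and length trend removed. In EZH2i (0 members) it was 3 at a fold of 1.5, 1 without an expression minimum (SERPINB9) and 1 with summed FPKM made equal (SERPINB8). For EZH2i against CDK2i (1 member) it was 4 at a fold of 1.5, 0 at a fold of 3, 2 without a minimum, 0 at a minimum of 5, 4 after centring each library at its median gene, and also 4 with the trend removed. The other scalings and both pseudocounts moved no count by over 1.5 times. Centring shifted all changes by 0.18 in CDK2i and −0.25 in EZH2i, and equal sums by 0.15 and 0.24. The median over expressed members in CDK2i (0.66) became 0.84 when centred, 0.81 with equal sums and 0.84 with the trend removed. In EZH2i (0.30) it became 0.048, 0.54 and −0.0515, so it reversed with the trend removed. For EZH2i against CDK2i (−0.23) it became −0.66 when centred, −0.80 with the trend removed and −0.11 over all 10 members. The thresholds act by their construction, and the cause of the other moves was not tested. Of the 52 alternative values of single members in each comparison, 3 had the other sign in CDK2i, all of SERPINB6, 8 in EZH2i, over 6 members, and 8 in EZH2i against CDK2i, over SERPINB1, SERPINB5, SERPINB6 and SERPINB8. No paired analysis was possible because each condition has 1 library. Depth limits SERPINB9 most, with about 25 to 99 fragments per library.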

Other observations

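Serpins of other clades and the cystatins, the other main intracellular and secreted inhibitors of cathepsins, were read from the same table. SERPINE2 (protease nexin), a secreted inhibitor of urokinase and thrombin, was at 29.9 FPKM under vehicle, 33.5 under CDK2i and 68.9 under EZH2i and passed in EZH2i alone. Its EZH2i change of 1.21 did not pass with each library centred (0.96) or with the GC and length trend removed (0.94). SERPINA3, an acute-phase inhibitor of cathepsin G, was at 47.4, 31.1 and 19.0 FPKM and passed as lower in EZH2i. SERPINH1, the collagen chaperone of the endoplasmic reticulum, was at 127, 165 and 148 FPKM and passed in neither.

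The cystatins CSTA, CSTB and CST3 were all lower in EZH2i than in vehicle. None of the 4 cystatins above the minimum passed in CDK2i, and none of the 3 above it in EZH2i. Over all genes 3.27% passed as higher and 8.07% as lower in CDK2i, and 8.93% and 4.42% in EZH2i. CSTA (stefin A), a cornified envelope protein, was at 270 FPKM under vehicle, 232 under CDK2i and 140.2 under EZH2i. CSTB (stefin B) was at 150.2, 248 and 114 FPKM, and CST3 (cystatin C) at 203, 255 and 110.4. With the treated tumors set against each other, 2 of the 4 cystatins were lower in EZH2i than in CDK2i by more than 2-fold, beside 6.53% over all genes. The median difference was −0.93. With the GC and length trend removed, the CST3 difference went from −1.21 to −0.56 and no longer passed, its change in EZH2i from vehicle went from −0.88 to −0.17, and the CSTA difference went from −0.73 to −1.06. In CDK2i 3 of the 4 were higher than in vehicle, with a median of 0.36 beside the 0.66 of the expressed clade B serpins.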
